A study of Mus musculus with 30 samples.

Results

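The genes described here are the replication-dependent and other histone genes of the mouse histone clusters, taken as every gene whose symbol starts with Hist1h, Hist2h, Hist3h or Hist4h. They numbered 70 of the 38720 gene symbols listed: 6 genes of the linker histone H1, 20 of H2A, 19 of H2B, 12 of H3 and 13 of H4. RNA was measured by poly(A) RNA-seq in retinas of newborn pups (postnatal day 0), dissociated with papain and split with anti-CD90 magnetic beads (CD90 is the Thy1 protein) into retinal ganglion cells (RGCs, the neurons that send axons into the optic nerve) and the other retinal cells, which the labels say were pooled. The series holds 18 RNA samples in 6 groups, of which 9 libraries in 3 groups of 3 are described by the deposited tables: RGCs of C57BL/6 mice, called WT and labelled with no transgene, and RGCs and non-RGCs of mice labelled mutant. Mutant animals carry Cre recombinase under Math5 (Atoh7), a gene of the early ganglion cell lineage, with both Ezh2 alleles floxed, and in the group called dKO also with 1 floxed allele of G9a (Ehmt2). The tables name only "mut", so it is not known here whether sKO (Math5Cre; Ezh2f/f) or dKO (Math5Cre; Ezh2f/fG9af/+) libraries stand behind them. Cre acts only in cells that have expressed Math5, so the non-RGC fraction of the same animals can hold cells whose Ezh2 was never recombined. WT non-RGCs and the 12 chromatin samples were not analysed here.

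Histones H2A, H2B, H3 and H4 form the protein core around which DNA is wound, and H1 binds the linker DNA between cores. Most genes of the clusters are intronless, are transcribed mainly in S phase, when new chromatin is assembled, and end in a stem-loop in place of a poly(A) tail. Their activator is NPAT, a substrate of cyclin E-CDK2, and their 3′ ends are made by a U7-guided complex with FLASH (Casp8ap2), Lsm10, Lsm11 and the endonuclease Cpsf3, with Slbp bound to the stem-loop. Poly(A) libraries catch these mRNAs poorly, through the share that is polyadenylated or carried over. The newborn mouse retina still contains dividing progenitors, while ganglion cells have left the cell cycle.

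The promoters of the H1 genes are shown because this class had the largest ratio of summed counts between the genotypes. An H4 gene of the same Hist1 cluster and an H2B gene of the Hist3 cluster are shown for comparison. Each run covers the 130 bases just before the annotated start of the gene, 5′ to 3′ on the gene's strand, from RefSeq on GRCm38.p6. Capitals mark every match on either strand to 3 motifs. The first is TATAAA, the usual core of the element that positions transcription starts. The second, CCAAT, is the binding motif of the factor NF-Y. The third is AAACACA, called the H1 box and known from promoters of linker histone genes. Of the 70 genes, 62 had such a promoter window, and Hist2h2be and Hist1h2bc were among those without one.
Hist1h1c chr13:23738677-23738806, plus strand: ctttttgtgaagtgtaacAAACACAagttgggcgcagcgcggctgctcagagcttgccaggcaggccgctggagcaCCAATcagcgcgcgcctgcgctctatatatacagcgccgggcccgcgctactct
Hist1h1e chr13:23622559-23622688, minus strand: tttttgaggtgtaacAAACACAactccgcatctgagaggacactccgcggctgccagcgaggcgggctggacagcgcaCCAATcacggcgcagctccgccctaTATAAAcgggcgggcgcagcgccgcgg
Hist1h1a chr13:23763538-23763667, plus strand: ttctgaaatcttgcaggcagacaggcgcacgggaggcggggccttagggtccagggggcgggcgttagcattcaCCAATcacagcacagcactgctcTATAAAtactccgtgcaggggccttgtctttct
Hist1h1b chr13:21780626-21780755, minus strand: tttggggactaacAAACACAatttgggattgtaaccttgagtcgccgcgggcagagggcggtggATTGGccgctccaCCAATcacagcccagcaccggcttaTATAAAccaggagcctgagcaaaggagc
Hist1h1d chr13:23554902-23555031, plus strand: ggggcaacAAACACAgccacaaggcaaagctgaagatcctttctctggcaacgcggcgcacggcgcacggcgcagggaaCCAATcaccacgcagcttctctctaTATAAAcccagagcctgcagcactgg
Hist1h1t chr13:23695681-23695810, plus strand: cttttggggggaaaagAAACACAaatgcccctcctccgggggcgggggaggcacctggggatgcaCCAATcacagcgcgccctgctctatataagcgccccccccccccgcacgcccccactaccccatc
Hist1h4i chr13:22041363-22041492, minus strand: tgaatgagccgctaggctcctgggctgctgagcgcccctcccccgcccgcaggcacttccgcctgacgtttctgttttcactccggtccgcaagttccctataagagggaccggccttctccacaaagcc
Hist3h2ba chr11:58948781-58948910, plus strand: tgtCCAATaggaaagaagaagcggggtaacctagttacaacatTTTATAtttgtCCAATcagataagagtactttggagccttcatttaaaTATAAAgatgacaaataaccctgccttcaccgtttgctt
Among the H1 genes, the CCAAT match nearest to the start began 65 bases before it in Hist1h1t and between 51 and 56 bases before it in the other 5. The H1 box began between 112 and 122 bases before the start in 5 genes and was not found in Hist1h1a. Over windows from 250 bases before to 50 bases after each start, searched on both strands, AAACACA was held by 5 of 6 H1 genes, 2 of 18 H2A genes, 2 of 16 H2B genes and no gene of H3 (10 windows) or H4 (12 windows), against 7.185% of all 32817 promoter windows. CCAAT was held by every window of H1 (6), H2A (18), H2B (16) and H3 (10), but by 3 of 12 H4 windows, against 37.39% of all windows. TATAAA was held by 35 of the 62 windows, against 13.62% of all. The octamer ATTTGCAT, known from H2B promoters, was held by 7 of 18 H2A and 7 of 16 H2B windows and by no window of another class, against 1.737% of all. Many H2A and H2B genes lie head to head and share these bases. A match is a run of letters and not a measured binding site.

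Each library held between 10551825 and 12259494 reads assigned to genes, and the libraries of a group are numbered by falling size factor, which ties them to no sample number. Whether the 3 libraries of a group are from separate animals is not stated in the labels, so p-values measure only the spread between these libraries. Ezh2 reads over the whole gene were higher in the mutant RGC libraries (log2 difference 0.58, SE 0.13, limma adjusted p = 0.0292) and those of Ehmt2 lower (log2 difference -0.43, SE 0.11, limma adjusted p = 0.0332). A whole-gene count includes exons outside a floxed stretch and does not check the deletion, so "mutant" below means labelled mutant. Of 18 ganglion cell markers, 0 were called higher and 9 lower in mutant RGCs, against 13.7% and 12.3% of all tested genes, Thy1 among them (log2 difference -0.80, SE 0.18, limma adjusted p = 0.0305). In WT, library 3 had the lowest mean level of these markers, 1.16 against 1.40 and 1.42 in the others (log2 levels, each gene set against its own mean in the 9 libraries). Of 12 microglia markers, 0 were called between genotypes, and their summed normalised counts ranged from 3423 to 4911 in WT RGCs, from 2161 to 7855 in mutant RGCs and from 212 to 250 in non-RGCs, with no marker at 0 in all 9 libraries. In bulk libraries, fewer cells of a type and less RNA per cell cannot be told apart.

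Reads of the histone cluster genes were few in every library. WT RGC libraries held 1254, 1119 and 1682 of them, mutant RGC libraries 2580, 2434 and 2273, and mutant non-RGC libraries 2555, 2651 and 2818. As a share of assigned reads this came to 0.0102%, 0.00965% and 0.0159% in WT RGCs, 0.0212%, 0.0202% and 0.0196% in mutant RGCs, and 0.0229%, 0.0238% and 0.0266% in non-RGCs. Every mutant library lay above every WT library, and WT library 3 (95% Wilson interval 0.0152 to 0.0167%) lay between WT libraries 1 and 2 and the mutant RGC libraries. These intervals cover counting error only.

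At least 1 read was found for 60 of the 70 genes, and 10 genes were at 0 in all 9 libraries. Among those at 0, Hist1h2aa and Hist1h2ba are testis histones, and the others, Hist2h2aa1, Hist2h2aa2, Hist2h3b, Hist2h3c1, Hist1h2ao, Hist1h2ap, Hist1h2bq and Hist1h2br, are near-identical copies of neighbouring genes, whose reads can be lost or assigned to another copy. Their counts are therefore uncertain. Hist1h1t, the testis H1 gene, had 3 reads over all 9 libraries, and RefSeq lists Hist1h2aj, Hist1h2al and Hist3h2bb-ps as pseudogenes. The genes Hist2h2be, Hist3h2ba, Hist1h1c, Hist3h2a and Hist1h4i together took 65.8% of the reads of the 70 genes.

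Among the genes with a span under 1000 bases, levels can be set side by side per kilobase of that span, as means over the 9 libraries. On this scale Hist3h2ba was highest at 814 normalised counts per kilobase, followed by Hist1h1c at 506, Hist3h2a at 299.6, Hist1h4i at 229.8 and Hist1h1e at 104. Duplicate reads had been removed before counting, so few reads can start at any 1 position of so short a gene. In its deepest library Hist1h1c had 0.959 reads per base of its span and Hist3h2ba 0.929, so counts of these genes, and differences between their levels, can be compressed.

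**Figure D1:**
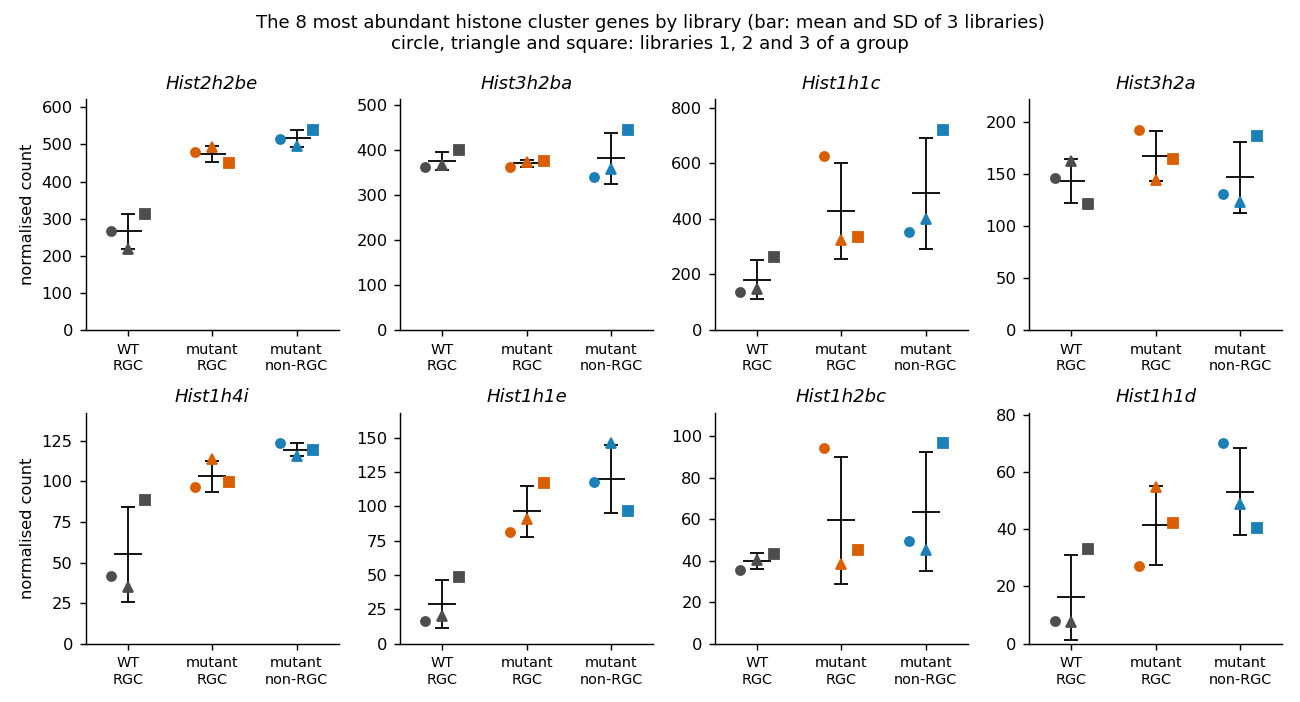
Normalised counts (vertical axes, each from 0) of the 8 histone cluster genes with the highest mean, by library (symbols) in WT RGCs, mutant RGCs and mutant non-RGCs, with the mean and SD of 3 libraries as bars. Hist2h2be, Hist1h1c, Hist1h4i and Hist1h1e were lower in the WT libraries, Hist3h2ba lay at like levels in all groups, and mutant RGC library 1 and non-RGC library 3 stood above their groups for Hist1h1c and Hist1h2bc.

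The first comparison set mutant RGCs against WT RGCs. Histone cluster transcripts were mostly more abundant in the mutant RGCs: group means were higher for 54 of the 60 genes with reads and lower for 6, against 50.8% higher over all genes with reads. The median log2 difference of means was 0.76 over the 60 genes and 0.01 over all genes. With limma's test across all genes, 25 of the 60 had a mean of at least 10 and were tested, and 3 of them rose: the linker histone genes Hist1h1e and Hist1h1c and the H2B gene Hist2h2be. That is 12% of those tested, near the 13.7% of all tested genes called higher, so the share called sets the family apart in no way. None was called lower, against 12.3% of all tested genes. Of the 10 with an unadjusted p under 0.05, 0 were lower and 10 were higher. The share of all tested genes under that cut was not counted, so this number does not set the family apart. The authors' deposited table, from their DESeq test, called 4 of the 60 genes with reads higher and 0 lower. The 4 were Hist2h2be, Hist1h1e, Hist1h4i and Hist1h2ak, a share near the 5.45% of all genes with a p called higher there. These 3 limma calls were lost without WT library 1, WT library 2, mutant RGC library 2 or mutant RGC library 3, when between 3 and 9 genes were called in the whole table, and without mutant RGC library 1 the calls of Hist2h2be and Hist1h1e held. Without WT library 3, 12 of 24 tested members were called higher, against 22.1% of all tested genes.

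The linker histone genes are taken first. Hist1h1e, with the largest log2 difference of the tested members, at chr13:23621777-23622558 (GRCm38), had normalised counts of 16.6, 19.7 and 48.0 in the WT libraries and 79.8, 92.5 and 118.4 in the mutant RGC libraries. Every mutant library was above every WT library, and WT library 3 was the highest of its group. The means were 28.1 ± 17.3 and 96.9 ± 19.7 (SD, n = 3), a log2 difference of 1.89 (SE 0.42, limma adjusted p = 0.0290) on the log2(value + 1) scale.

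Hist1h1c, at chr13:23738807-23739531, was the most abundant H1 gene, at 132.5, 142.2 and 257.4 in WT and 616.1, 330.7 and 339.1 in mutant RGCs. The groups did not overlap, but mutant library 1 was far above the other mutant libraries. The means were 177.4 ± 69.4 and 428.6 ± 162.4 (SD, n = 3), a log2 difference of 1.27 (SE 0.34, limma adjusted p = 0.0390). Without mutant RGC library 1 the log2 difference was 0.98 (limma adjusted p = 0.0719), and the adjusted p in the authors' deposited table was 0.0667.

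The remaining somatic H1 genes were far lower in level, again with WT library 3 the highest of its group. Hist1h1d (chr13:23555032-23555807) had 7.80, 7.27 and 32.7 in WT and 26.6, 55.9 and 42.8 in mutant RGCs, so WT library 3 overlapped the mutant range. Its log2 difference was 1.60 (SE 0.61, limma adjusted p = 0.0866), and 2.26 (limma adjusted p = 0.00938) without WT library 3. Without WT library 2 it was 1.25 (limma adjusted p = 0.232). Hist1h1b (chr13:21779832-21780625) went from 5.85, 3.11 and 17.4 to 17.4, 24.1 and 33.8, a log2 difference of 1.65 (SE 0.59, limma adjusted p = 0.0763). For Hist1h1a (chr13:23763668-23764412) the values were 3.90, 2.08 and 15.3 in WT and 16.5, 29.9 and 13.9 in mutant RGCs, a log2 difference of 1.68 (SE 0.66, limma adjusted p = 0.0968). None of the 3 passed the threshold over all 6 libraries, with WT library 3 at or above the lowest mutant library in each.

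Of the H2B genes, 7 were tested and 1 was called. Hist2h2be, at chr3:96221072-96223738, encodes an H2B variant known from olfactory neurons and was the most abundant of the 70 by normalised count. Its normalised counts were 261.2, 212.9 and 307.5 in WT and 470.3, 505.1 and 455.5 in mutant RGCs. The groups were far apart and the mutant libraries close together. The means were 260.5 ± 47.3 and 477.0 ± 25.5 (SD, n = 3), a log2 difference of 0.88 (SE 0.15, limma adjusted p = 0.0238), and the adjusted p in the authors' deposited table was 0.000168.

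Hist3h2ba, an H2B gene of the small cluster on chromosome 11 (chr11:58948911-58949372), held nearly the same level throughout, though duplicate removal can compress its differences. It had 354.8, 357.2 and 393.7 in WT and 354.8, 381.7 and 380.9 in mutant RGCs, with full overlap. The means were 368.5 ± 21.8 and 372.5 ± 15.3 (SD, n = 3), a log2 difference of 0.02 (SE 0.09, limma adjusted p = 0.9071), a difference within the spread of the libraries, whose sign turned under upper-quartile scaling and was kept under total-count scaling. Hist1h2bc had 35.1, 39.5 and 42.5 in WT and 92.6, 39.5 and 45.8 in mutant RGCs. Only mutant library 1 lay well above WT, and the log2 difference was 0.49 (SE 0.34, limma adjusted p = 0.3058).

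Among 6 tested H2A genes none was called. Of these, 2 had an unadjusted p under 0.05, both higher, a cut at which all genes were not counted. Hist3h2a (chr11:58954685-58955192), the neighbour of Hist3h2ba, had 143.3, 158.9 and 118.9 in WT and 188.9, 147.5 and 166.1 in mutant RGCs. The ranges overlapped, with a log2 difference of 0.26 (SE 0.17, limma adjusted p = 0.2788). Hist1h2ak had 4.87, 11.4 and 21.8 in WT and 32.1, 28.9 and 35.8 in mutant RGCs, groups that did not overlap. Its log2 difference was 1.48 (SE 0.50, limma adjusted p = 0.0662), and its adjusted p in the authors' deposited table was 0.0458. Hist1h2ab had between 0 and 12 in WT and 8.25, 21.2 and 16.9 in mutant RGCs, overlapping groups of very low counts. Its log2 difference of 1.79 was next in size to that of Hist1h1e but had a large error (SE 0.95, limma adjusted p = 0.1899).

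Genes of H3 and H4 were low, with 3 and 4 tested and none called by limma. Hist1h4i (chr13:22040960-22041362) was the most abundant H4 gene, at 40.9, 34.3 and 87.2 in WT and 94.4, 116.6 and 100.5 in mutant RGCs. WT library 3 lay just under the mutant libraries and the other WT libraries far below. The means were 54.1 ± 28.9 and 103.8 ± 11.5 (SD, n = 3), a log2 difference of 1.04 (SE 0.36, limma adjusted p = 0.0682). Without WT library 3 it was 1.44 (limma adjusted p = 0.00486), and without WT library 2 it was 0.78 (limma adjusted p = 0.187). The adjusted p in the authors' deposited table was 0.0393. Hist1h3a had 7.80, 5.19 and 15.3 in WT and 15.6, 17.4 and 15.9 in mutant RGCs, with the highest WT library just under the lowest mutant library (log2 difference 0.85, SE 0.41, limma adjusted p = 0.1579). Log2 differences of the 25 tested genes ran from -0.13 for the pseudogene Hist3h2bb-ps to 1.89 for Hist1h1e.

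The other 35 genes with reads were below the filter and were not tested. Of all 60 with reads, 15 (25%) did not overlap between the groups, each higher in the mutant RGCs and none lower. Over all genes with reads, 17.3% lay wholly higher and 17.3% wholly lower. Those background shares depend on level: among all genes with a mean of at least 10 they were 26.2% and 24.9%. The 15 were 2 of H1, 2 of H2A, 4 of H2B, 5 of H3 and 2 of H4. Hist1h4n, an H4 gene, had no read in the 3 WT libraries, against 3, 2 and 1 in mutant RGCs and 4, 7 and 2 in non-RGCs. The 6 genes with lower means in the mutant RGCs were Hist2h4, Hist2h2bb, Hist3h2bb-ps, Hist1h3f, Hist1h2ad and Hist1h4b, and in each the groups overlapped.

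**Figure D2:**
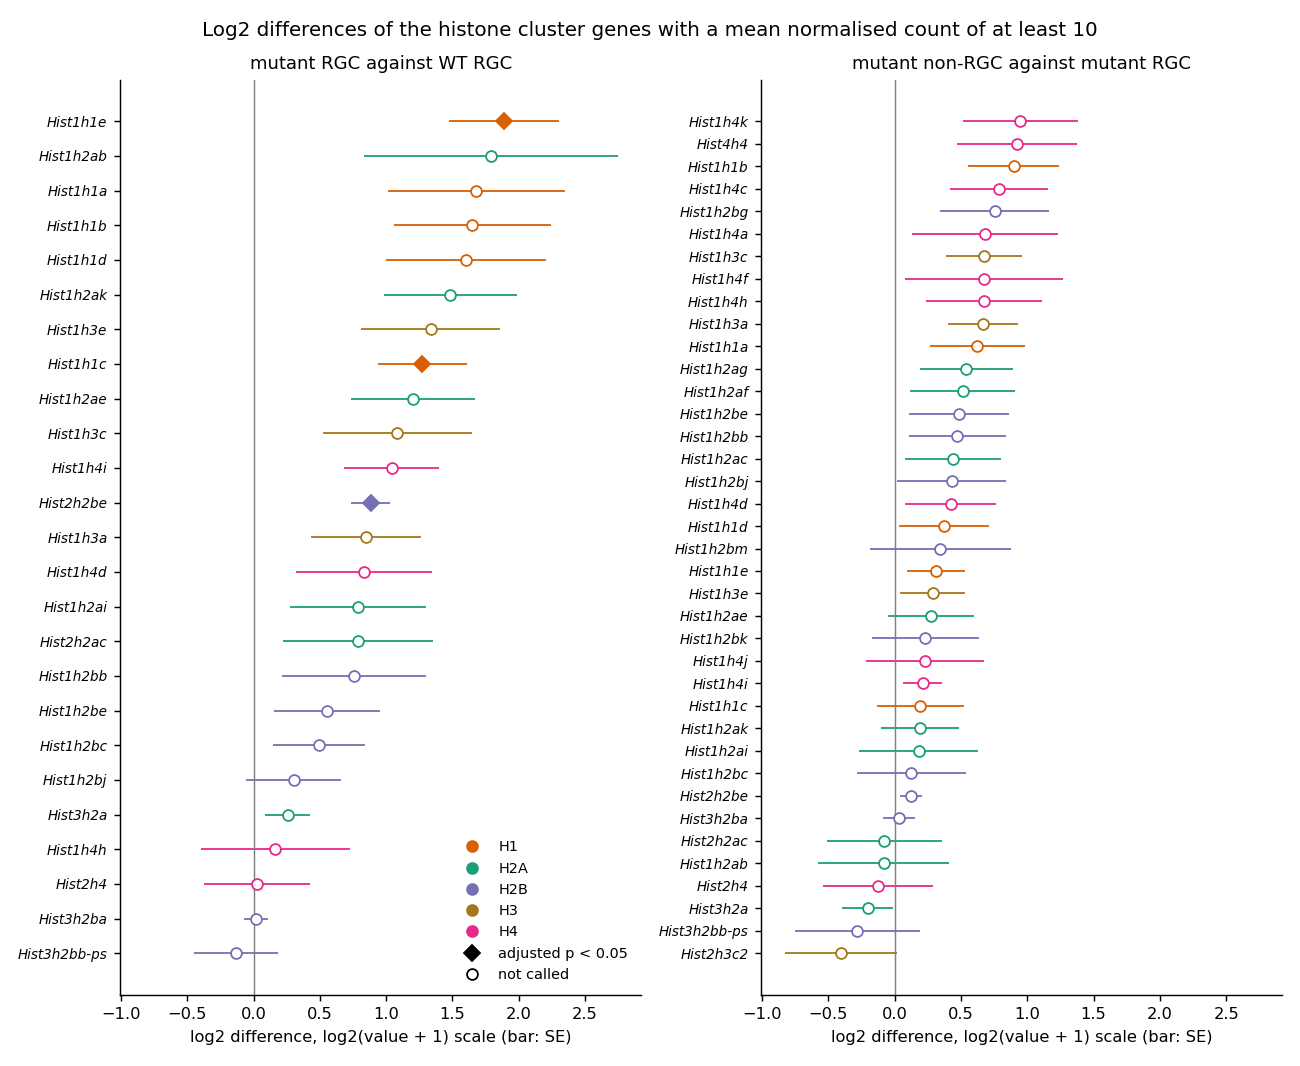
Log2 differences with their SE (horizontal axis, log2(value + 1) scale) for the tested histone cluster genes, 25 in the comparison of genotypes (left) and 38 in the comparison of fractions (right), colored by class, with filled diamonds for genes called by limma at an adjusted p under 0.05. Hist1h1e, Hist1h1c and Hist2h2be are filled on the left, none is filled on the right, and most points on both sides lie right of 0.

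Summed normalised counts of a class take in the low genes too and were set on a common scale for all 9 libraries. The H1 sum was 242 ± 117 in WT RGCs and 612 ± 138 in mutant RGCs (SD, n = 3), a ratio of 2.53, of which Hist1h1c made up the larger part. The ratio was 1.88 for H3 (68.8 ± 45.4 and 129 ± 19.5), 1.57 for H4 (144 ± 88.0 and 226 ± 43.8), 1.47 for H2A (224 ± 29.3 and 330 ± 4.49) and 1.35 for H2B (753 ± 99.4 and 1017 ± 17.3). The H2A and H2B sums include the abundant Hist3 genes, which summed to 533 in WT and 550 in mutant RGCs and so lower both ratios. By the median log2 difference of means per gene the order was another: 1.36 for H1, 0.87 for H2A, 0.83 for H3, 0.66 for H2B and 0.33 for H4. For H3 and H4 WT library 3 lay among the mutant RGC libraries, with an H4 sum of 245 against 107 and 80.8 in the other WT libraries and 180, 268 and 230 in mutant RGCs. Without WT library 3 the ratio was 3.02 for H3 and 2.40 for H4, and without WT library 2 it was 1.52 and 1.285. For H1, H2A and H2B the groups did not overlap. Leaving out the 3 called genes, the sum of the rest was 958 ± 245 and 1314 ± 83.7, a ratio of 1.37, with WT library 3 at 1240 inside the mutant range of 1223 to 1387.

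By place in the genome, the ratio was 2.13 for the 29 genes of the Hist1 stretch that includes Hist1h1a, Hist1h1c, Hist1h1d and Hist1h1e (chr13:23531044-23764412), and 1.98 for the 24 genes of the Hist1 stretch at chr13:21715711-22043658. Without WT library 3 these ratios were 3.04 and 3.00, and without WT library 2 they were 1.85 and 1.68. The Hist2 genes on chromosome 3 had a ratio of 1.72, nearly all of it in Hist2h2be. For the 3 Hist3 genes on chromosome 11 it was 1.03, with sums of 533 ± 12.1 and 550 ± 16.5. Duplicate removal can compress this ratio, as for Hist3h2ba alone. In 10 places an H2A and an H2B gene start head to head, between 164 and 281 bases apart, and 7 of these pairs had reads in both genes. Both means were higher in mutant RGCs in 6 of the 7. Since 54 of all 60 genes with reads had higher means, this count shows nothing particular to pairs.

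**Figure D3:**
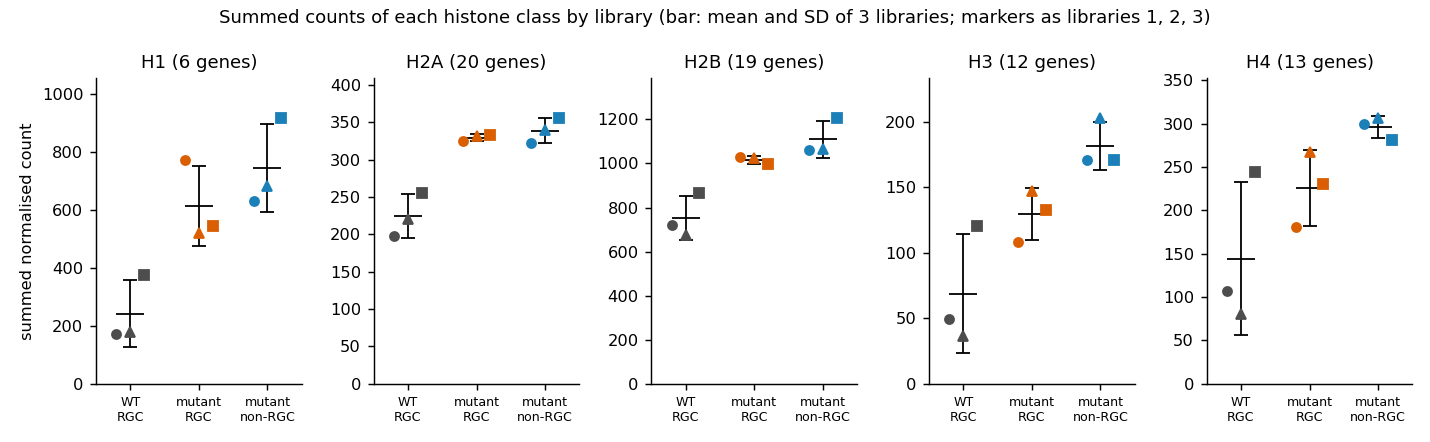
Summed normalised counts (vertical axes, each from 0) of the H1, H2A, H2B, H3 and H4 genes in each of the 9 libraries (symbols), with the mean and SD of 3 libraries as bars. In the H3 and H4 panels WT library 3 (square) lies within the range of the mutant RGC libraries, and in the H1 panel mutant RGC library 1 and non-RGC library 3 lie highest in their groups.

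Beside the histone genes, the genes that make and process their mRNA also moved in part. Of 25 such genes tested, 9 rose and 1 fell in mutant RGCs, against 13.7% higher and 12.3% lower over all tested genes, with a median log2 difference of 0.20 against 0.00 over all genes. Eri1, the exonuclease that trims histone mRNA 3′ ends, rose by a log2 difference of 0.56 (limma adjusted p = 0.0215), Casp8ap2 by 0.58 (limma adjusted p = 0.0239), Cpsf3 by 0.48 (limma adjusted p = 0.0238) and Npat by 0.44 (limma adjusted p = 0.0268). Slbp had a log2 difference of 0.26 and was not called (limma adjusted p = 0.0946). Lsm11, a U7 component, fell, with a log2 difference of -0.68 (limma adjusted p = 0.0459), from 2399 ± 472 to 1498 ± 282 (SD, n = 3). Of 24 histone chaperones and assembly factors, 10 rose and 1 fell against the same shares, with a median of 0.24. Among them were Supt16, a subunit of FACT (0.52, limma adjusted p = 0.0238), the H2A.Z chaperone Anp32e (0.44, limma adjusted p = 0.0275) and the histone acetyltransferase Hat1 (0.75, limma adjusted p = 0.0293).

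Histone variant genes outside the clusters mostly make polyadenylated mRNA, though H2afx is known to make a stem-loop form as well. Of 11 tested, 3 rose and none fell, against 13.7% and 12.3% of all tested genes, with a median log2 difference of 0.24. Cenpa, the centromeric H3, went from 368 ± 163 to 756 ± 49.7 (SD, n = 3; log2 difference 1.12, SE 0.27, limma adjusted p = 0.0336). The damage-response H2A gene H2afx had 0.49 (limma adjusted p = 0.0457), and H1f0, the linker histone of cells that have stopped dividing, had 0.50 (limma adjusted p = 0.0476). H3f3b, a gene of the replacement histone H3.3, had 0.07 and was not called (limma adjusted p = 0.520).

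Genes of DNA replication and mitosis moved alongside. Of 25 S-phase genes, 17 rose and none fell in mutant RGCs, with a median log2 difference of 0.82. All 15 mitosis genes rose, with a median of 1.07. Over all tested genes, 13.7% were called higher and 12.3% lower. Mki67, the marker of cycling cells, had a log2 difference of 0.80 and was called (limma adjusted p = 0.0444), while Pcna had 0.34 and was not (limma adjusted p = 0.102). The mean level of the S-phase list, relative to the mean of the 9 libraries on the log2 scale, was -0.85, -0.78 and -0.14 in WT, and 0.15, 0.19 and 0.11 in mutant RGCs. WT library 3, the WT library with most histone reads, thus had the WT level nearest to the mutant libraries. Of the progenitor markers 5 of 14 rose, of the photoreceptor markers 6 of 10, and of the amacrine and horizontal cell markers 7 of 11, with none lower in these lists. As for the histone genes, leaving out WT library 1 or 2 or mutant RGC library 2 or 3 left at most 9 calls in the whole table, while 6478 were made without WT library 3 and 2284 without mutant RGC library 1. The part of cell makeup in the histone differences was not tested.

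The second comparison set mutant non-RGCs against mutant RGCs, using the same mutant RGC libraries, so the comparisons are not independent. The authors scaled its table separately, so values of mutant RGCs differ slightly from those above. Group means of histone cluster genes were higher in the non-RGCs for 50 of the 60 genes with reads and lower for 10, against 51.6% higher over all genes with reads. The median log2 difference of means was 0.35, against 0.01 over all genes. Of 38 genes tested by limma none was called in either direction, against 5.07% of all tested genes called higher and 12% lower. With counts scaled to library totals these background calls were 1465 higher and 1601 lower, against 770 and 1820, and still none was a histone cluster gene. An unadjusted p under 0.05 was reached by 2, both higher, and the share of all genes under that cut was not counted. Neither limma with voom weights nor the authors' deposited table called any. That deposited table called 1.17% of all genes with a p higher. The groups did not overlap for 13 genes, all higher in the non-RGCs, against 11.8% of all genes with reads. None lay wholly lower, against 14.3%. These background shares also depend on level. Among all genes with a mean of at least 10, 17.1% lay wholly higher and 20.6% wholly lower. Some of the 13, Hist1h3i among them, were below that mean, so their number alone does not set the family apart.

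The larger log2 differences between the fractions lay in genes of low level. Hist1h1b had 18.0, 24.5 and 34.6 in mutant RGCs and 58.1, 54.4 and 33.0 in non-RGCs, where library 3 fell within the RGC range (log2 difference 0.90, SE 0.34, limma adjusted p = 0.1197). Hist1h3a had 16.1, 17.6 and 16.3 in RGCs and 26.1, 26.2 and 28.7 in non-RGCs, tight groups with no overlap (log2 difference 0.66, SE 0.26, limma adjusted p = 0.1306). Hist1h4k had 14.2, 8.82 and 5.09 in RGCs and 16.0, 16.1 and 21.3 in non-RGCs, again with no overlap (log2 difference 0.95, SE 0.43, limma adjusted p = 0.1854). By class, the ratio of summed counts was 1.40 for H3, 1.31 for H4, 1.21 for H1, 1.09 for H2B and 1.03 for H2A. The abundant Hist3 genes, with a ratio of 0.98, again lower the ratios of H2A and H2B.

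The abundant genes were closer between fractions. Hist2h2be had 485.2, 513.5 and 466.2 in RGCs and 530.4, 510.4 and 552.8 in non-RGCs, with slight overlap (log2 difference 0.12, SE 0.08, limma adjusted p = 0.3502). Hist1h1e had 82.3, 94.1 and 121.1 in RGCs and 121.3, 150.0 and 98.9 in non-RGCs, overlapping in non-RGC library 3 (log2 difference 0.31, SE 0.22, limma adjusted p = 0.3857). Hist1h4i had 97.4, 118.6 and 102.8 in RGCs and 127.3, 118.8 and 122.2 in non-RGCs, barely apart (log2 difference 0.21, SE 0.15, limma adjusted p = 0.3773).

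The genes of the Hist3 cluster and Hist1h1d again overlapped between the fractions. Hist3h2ba had 366.0, 388.1 and 389.9 in RGCs and 350.9, 369.5 and 456.1 in non-RGCs (log2 difference 0.03, SE 0.12, limma adjusted p = 0.8868). Hist3h2a had 194.8, 149.9 and 170.0 in RGCs and 134.3, 126.9 and 190.3 in non-RGCs (log2 difference -0.20, SE 0.19, limma adjusted p = 0.5220). Hist1h1d had 27.4, 56.8 and 43.8 in RGCs and 72.2, 50.3 and 41.5 in non-RGCs (log2 difference 0.37, SE 0.34, limma adjusted p = 0.5014). A p above the threshold does not show that these levels were equal.

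For comparison, 10 of 25 S-phase genes, 9 of 15 mitosis genes and 4 of 14 progenitor markers rose in the non-RGCs, 12 of 18 ganglion cell markers fell, and all 12 microglia markers fell, against the 5.07% higher and 12% lower given above for all tested genes. Among genes that control histone mRNA, Srrt, Cdk2, Ccne1 and Cpsf4 rose and Lsm11 fell (log2 difference -0.78, limma adjusted p = 0.0134). The chaperones Nasp and Mcm2 rose, with log2 differences of 0.24 and 0.22, and of the variants only Cenpa was called (0.39, limma adjusted p = 0.0135).

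A further pattern lay within the groups, seen in 6 genes that were chosen after their values were seen. Mutant RGC library 1 and non-RGC library 3 were the highest of their groups for Hist1h1c, Hist1h2bc and Hist3h2a. On the fraction scale Hist1h1c had 635.5 in RGC library 1 against 336.1 and 347.1, and 738.8 in non-RGC library 3 against 363.9 and 412.8. Hist1h2bc had 95.5 against 40.2 and 46.8 in RGCs, and 98.9 against 51.1 and 46.3 in non-RGCs. Between the fractions neither gene was called, at log2 differences of 0.19 (SE 0.33, limma adjusted p = 0.7318) for Hist1h1c and 0.12 (SE 0.41, limma adjusted p = 0.8711) for Hist1h2bc.

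Other H1 genes did not follow these libraries. Relative to the mean of the 9 libraries on the log2 scale, Hist1h1d was at -0.14 in mutant RGC library 1, against 0.85 and 0.49, and Hist1h1b was at 0.64 in non-RGC library 3, against 1.43 and 1.34. The S-phase list varied little within these groups, at 0.47, 0.45 and 0.41 in the non-RGCs. Those same libraries had the highest mean photoreceptor marker level of their groups, 0.51 against 0.10 and 0.18 in RGCs, and 0.49 against 0.19 and 0.21 in non-RGCs. They were also the highest of their groups for the amacrine and horizontal cell list, 0.30 against 0.07 and 0.09 in RGCs and 0.297 against 0.293 and 0.153 in non-RGCs, and for the lens list. Mutant RGC library 1 also had the highest levels of the astrocyte, pigment epithelium and blood lists, of the microglia list (2.87 against 0.99 and 0.85) and of the endothelial list (1.90 against -0.57 and -0.12), and the lowest of the ganglion cell list (0.01 against 0.72 and 0.70). Of the non-RGC libraries, library 3 was lowest for ganglion cell markers, at -3.19 against -1.27 and -0.95. The part of these other cells in the levels of Hist1h1c and Hist1h2bc was not tested.

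**Figure D4:**
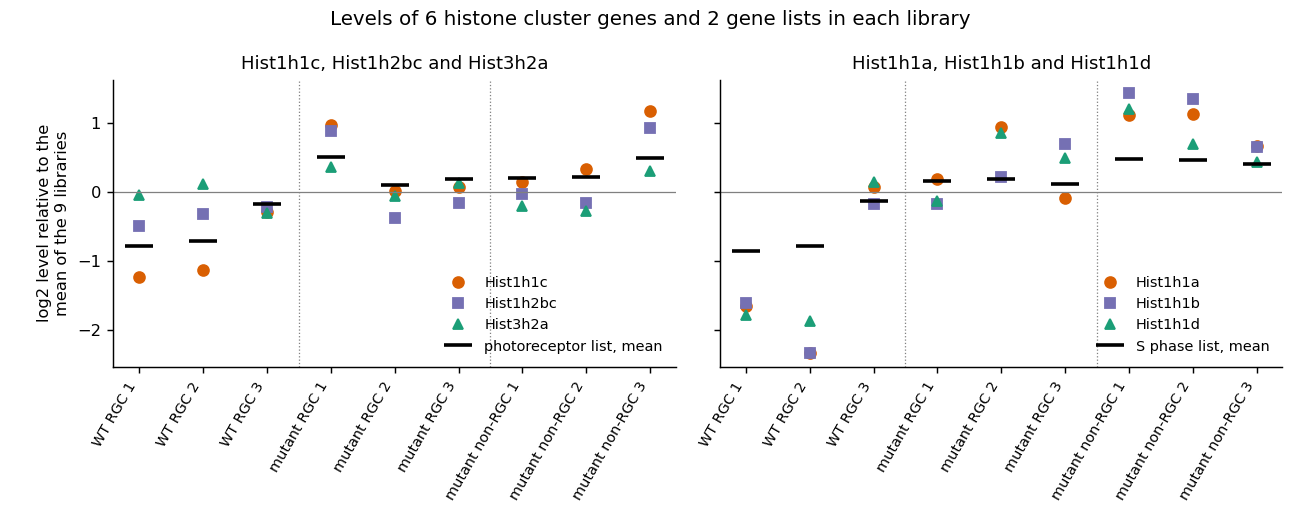
Log2 levels relative to the mean of the 9 libraries (vertical axis) of Hist1h1c, Hist1h2bc and Hist3h2a with the mean of the photoreceptor list (left), and of Hist1h1a, Hist1h1b and Hist1h1d with the mean of the S-phase list (right), by library. Mutant RGC library 1 and non-RGC library 3 are highest of their groups on the left, while on the right WT library 3 lies between the other WT libraries and most of the mutant libraries.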

How the data were processed

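Poly(A) RNA libraries (NEBNext) were sequenced in 75 cycles from 1 end, per the design text. The authors used STAR 2.3, featureCounts, DESeq, FastQC and build mm10, per the submitters' processing notes, which give no strand setting. The authors' files held alignments that were sorted, limited to primary ones and cleared of duplicates, as the names of the deposited tables show. Per the file headers, the 2 deposited tables give the authors' normalised counts as means of 3 libraries, the fold change as a ratio, its log2 value, and the p-value and adjusted p-value.

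Each library's whole reads were solved from those means for between 99.975% and 100.0% of genes above 0 in a group, each within 1e-09 of a whole number (the farthest taken lay 4.5e-11 off), and 6 abundant WT genes with several solutions were dropped. Values divided by the authors' size factors were tested as log2(value + 1) with limma 3.58.1 and a variance trend (R 4.3.3), keeping genes that averaged 10 or more over 6 libraries, with Benjamini-Hochberg adjustment over all genes and calls at 0.05. Adding 1 shrinks the log2 differences of low genes. As differences between mean logs, they can still exceed the log2 difference of group means. For Hist1h2ab between genotypes these were 1.79 and 1.24, and for Hist1h1d 1.60 and 1.34. Sums, relative levels and figures used median-of-ratios factors over the 9 libraries. The fit was also run on simulated data with a common dispersion and few changed genes. That setting differs from these data, so it does not check the calls made here. Genes named were the called ones and the 8 of highest mean, with others as examples. Up to 3 genes per list with the smallest adjusted p, and those that define it, were also named. The members, lists and alternatives were chosen with earlier results of these data known. Lists covered histone variants, histone mRNA control, chaperones, S phase, mitosis and markers of ganglion cells, progenitors, photoreceptors, amacrine and horizontal cells, microglia, astrocytes, vessels, pigment epithelium, lens and blood. Coordinates and promoters are from RefSeq on GRCm38, also called mm10, in which all 70 members were matched. The 12 chromatin samples were left out.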

Additional observations from a re-analysis of the deposited data

How the results depend on the processing

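In the comparison of genotypes, 3 histone cluster genes were called higher with a lower filter (mean of at least 1), pseudocounts of 0.5 or 5, upper-quartile or total-count scaling and voom weights, and 4 with no filter, which added Hist1h4n, or in the authors' deposited table. Leaving out 1 library gave from 0 to 12 higher calls among the members and from 3 to 6478 calls over all genes, against 3971. No member was called lower in any setting. In the comparison of fractions no member was called under any setting run, and calls over all genes, 2590 with all libraries, ran from 438 to 3325 with 1 library left out and numbered 1635 in the authors' deposited table. The log2 difference of Hist3h2ba between genotypes turned sign under upper-quartile scaling (-0.0021) and without WT library 1 (-0.010), WT library 2 (-0.0055), mutant RGC library 2 (-0.0019) or mutant RGC library 3 (-0.00036), and was at most 0.064 with any 1 library left out (without WT library 3). Between fractions, Hist1h2bc turned sign without mutant RGC library 2 (-0.12), mutant RGC library 3 (-0.0083) or non-RGC library 3 (-0.21), and without non-RGC library 3 so did Hist1h1c (-0.12) and Hist3h2ba (-0.082). With 1 library left out, the highest values of these genes were 0.50 and 0.49 for Hist1h2bc and Hist1h1c, both without mutant RGC library 1, and 0.11 for Hist3h2ba, without non-RGC library 1. None of these was called. The causes were not tested. Leaving libraries out of the summed counts was added after seeing the data. No paired analysis was possible because the tables carry no replicate numbers. Depth limits the family: 35 members with reads in the comparison of genotypes and 22 in that of fractions were too low to test, and duplicate removal can compress the most abundant.

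Of the remaining marker lists, 0 of 4 astrocyte, 0 of 3 lens and 0 of 5 blood genes tested were called between genotypes. In the same comparison 1 of 8 vessel genes rose, and 2 of 4 pigment epithelium genes rose and 1 fell. Over all tested genes, 13.7% were called higher and 12.3% lower.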
